A study of Caenorhabditis elegans with 2 samples.

Results

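The col genes of Caenorhabditis elegans, taken as every protein-coding gene whose symbol carries the col- prefix in the WBcel235 annotation, numbered 156 of 19973 protein-coding genes. RNA 3' ends had been sequenced from 2 libraries, 1 of sorted nuclei and 1 of input nuclei. Sorted nuclei were collected by fluorescence-activated sorting, with intestine as the tissue label and nuclear RNA as the molecule label. Input nuclei carried the labels mixed tissues and total RNA. Both came from strain JM149, grown at 25 °C in liquid culture as a mixed-stage population and passed through a strainer that enriched adults. What transgene marks the sorted nuclei, and which promoter drives it, was not given in the sources used here, and the molecule label cannot be told apart from the sorting. With 1 library per group there was no replicate and no test between groups, so the 95% intervals given are exact binomial intervals that cover counting error only. They treat each read as an independent molecule, which amplification without molecular identifiers does not ensure.

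Nematode collagens of this family are short secreted proteins with repeats of glycine and other residues, most of them built into the cuticle, the layered extracellular coat that the epidermis (hypodermis) makes anew at each moult. Single collagens are produced at set points of the moulting cycle and, in some cases, at a single life stage. Chains are hydroxylated and folded in the endoplasmic reticulum, trimmed by proteases after secretion and then crosslinked. The intestine is not the tissue known for making cuticle.

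The sorted library held 4709432 reads and the input library 9243831, of which 4571685 and 9094297 were assigned to protein-coding genes. Levels are given as RPM, reads per 1000000 of these gene-assigned reads. A transcript gives its read at its 3' end, so gene length does not enter the level. A gene counted as measured with at least 20 reads over both libraries, which 10814 protein-coding genes had. A count of 0 allows up to 3 reads, or 0.656 RPM in sorted and 0.330 RPM in input nuclei. Of 26 intestinal marker genes, 24 were measured. By the 2-fold rule also used for the col genes, in which the bound nearest 1 must pass 2-fold, 14 of the 24 were higher in sorted nuclei (13 under TMM scaling, the trimmed mean of M values) and 0 lower. By the same rule 13.6% of all measured genes were higher and 4.13% lower, with 13.1% and 4.57% under TMM. Their summed level was 25905 RPM in sorted and 18941 RPM in input nuclei, and no marker of this list was at 0 in sorted nuclei. The gut GATA factor gene elt-2 had 156 sorted and 97 input reads, a ratio of sorted over input of 3.20 (95% interval 2.47 to 4.17). The carboxylesterase gene ges-1, a classic gut marker, had 3905 sorted and 2380 input reads and a ratio of 3.26 (3.10 to 3.44). The yolk protein genes of the same list went both ways, and none of them was called. Under 1 were vit-2 at 0.739 (0.720 to 0.758), vit-3 at 0.497 (0.458 to 0.538), vit-4 at 0.504 (0.457 to 0.555) and vit-6 at 0.759 (0.741 to 0.777). Over 1 were vit-5 at 1.03 (1.01 to 1.05) and vit-1 at 1.70 (1.15 to 2.50).

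As a family, the col genes took a smaller share of the reads in sorted nuclei. They held 90187 sorted reads, 1.97% of the gene-assigned reads (1.96 to 1.99), and 443761 input reads, 4.88% (4.87 to 4.89). The summed level in sorted nuclei was thus 0.404 of that in input nuclei (0.401 to 0.407). In bulk nuclei, fewer nuclei of a type and less RNA per nucleus cannot be told apart. The 6 col genes with the most reads carried 41.6% of the family's sorted and 53.4% of its input reads. Without them the summed ratio was 0.506 (0.501 to 0.511), and without the 20 most abundant it was 0.616 (0.607 to 0.625).

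Of the 156 col genes, 123 were measured. Of the other 33, 20 had between 1 and 19 reads and 13 had none in either library, and all 33 together held 138 reads. Among the 123, 31 were at least 2-fold lower in sorted nuclei, meaning that the upper bound of the ratio was at or under 0.5. Of all measured genes, 4.13% were called lower by this rule. None of the 123 was at least 2-fold higher by the lower bound, a call made for 13.6% of all measured genes. The other 92 passed neither bound. Where every position with reads was counted once in place of its reads, 0 of 81 measured members were lower and the median log2 ratio was -0.37. That count changes the ratios of all genes, and no share or median over all genes is given for it. At 4-fold, 4 members were lower, against 0.314% of all measured genes, and 0 were higher, against 4.69%. The 4 were col-19, col-80, col-81 and col-122.

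The median log2 ratio of the measured col genes was -0.88, a ratio of 0.541, and that of all measured genes was 0.044. The quartiles of the members were -1.35 and -0.24 on the log2 scale, against -0.61 and 0.89 for all genes. The log2 ratio was below 0 in 84.6% of members and in 48.0% of all genes. The whole interval of the ratio lay under 1 in 87 members, against 27.6% of all genes, and over 1 in 9 members, against 32.4%. The remaining 27 intervals held 1. TMM scaling moved every log2 ratio by -0.04 and gave 34 lower and 0 higher members, against 4.57% and 13.1% of all measured genes.

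**Figure D1:**
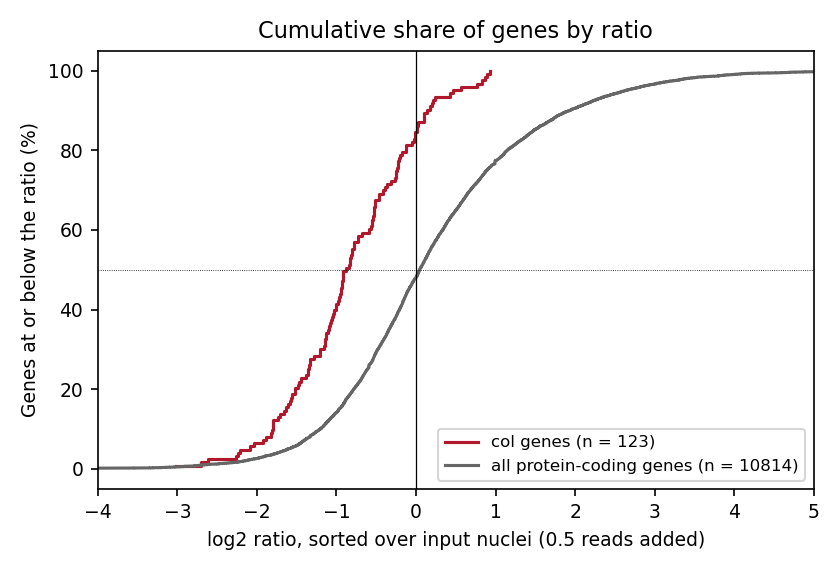
Cumulative share of genes (vertical axis, percent) by log2 ratio of sorted over input nuclei (horizontal axis) for the 123 measured col genes (red) and all 10814 measured protein-coding genes (grey). The col curve lies to the left, crossing 50% at -0.88 against 0.044, and ends at 0.93.

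Calls of at least 2-fold lower were most frequent among abundant members. With 1000 reads or more, 22 of 48 col genes were at least 2-fold lower and the median log2 ratio was -1.01, beside 10.3% lower and a median of -0.20 for all genes of that depth. With at least 100 but under 1000 reads, 7 of 53 members were lower, with a median of -0.78, beside 4.23% and 0.026 for all genes. With 20 to 99 reads, 2 of 22 members were lower, with a median of -0.47, beside 2.24% and 0.16. The share of members with a point ratio under 0.5 did not fall steadily with depth. It was 50.0%, 34.0% and 40.9% in these classes, in the same order, beside 14.2%, 11.9% and 18.4% of all genes. Few reads widen the interval, so a call at 2-fold is harder to reach for rare genes. The input reads also stand in the denominator of the ratio, which ties it to abundance. Across the 123 members the levels in both libraries kept much the same order (Spearman's rho 0.95), a description of members that share the same 2 libraries and their depths.

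**Figure D2:**
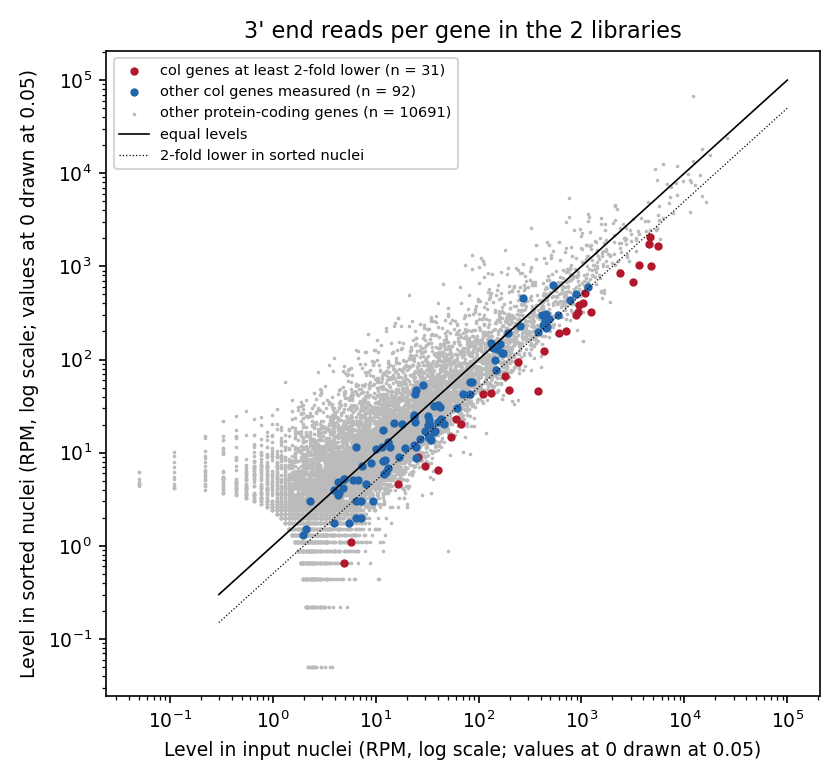
Level of each measured gene in sorted nuclei (vertical axis) against input nuclei (horizontal axis), both in RPM on log scales. The 31 col genes at least 2-fold lower (red) lie below the dotted line of 2-fold lower levels, and 92 other col genes (blue) lie around and above it among the other genes (grey).

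The 6 most abundant col genes were each at least 2-fold lower in sorted nuclei, but to unequal degrees. The gene col-160 (chromosome V, 13200982 to 13202189, WBcel235) was the most abundant member in sorted nuclei, with 9487 sorted and 41848 input reads. These are levels of 2075 and 4602 RPM, and the ratio was 0.451 (0.441 to 0.461). The gene col-181 (X, 12104930 to 12106102) had 8008 sorted and 40779 input reads and a ratio of 0.391 (0.381 to 0.400). Both stood above col-124 (IV, 10216451 to 10217617) in sorted nuclei, although col-124 was the most abundant member in input nuclei.

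For col-124, 7645 sorted and 49934 input reads gave levels of 1672 and 5491 RPM and a ratio of 0.305 (0.297 to 0.312). For col-122 (IV, 9563379 to 9564441), the second in input and the fifth in sorted nuclei, 4597 sorted and 42951 input reads gave 0.213 (0.206 to 0.219). The gene col-175 (X, 9233638 to 9234618) had 4733 sorted and 32844 input reads, a ratio of 0.287 (0.278 to 0.296). Among the 10 members with the most reads, ratios ran from 0.213 for col-122 to 0.516 for col-184, and 7 of the 9 pairs of neighbours in this order had intervals that did not overlap. The exceptions were col-122 beside col-19 and col-160 beside col-3. How far libraries prepared again would differ was not measured.

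Next in input nuclei, col-8 (III, 7019583 to 7020600) had 3924 sorted and 21740 input reads, a ratio of 0.359 (0.347 to 0.371). The gene col-129 (IV, 12108734 to 12110439) had 1491 and 11300, a ratio of 0.262 (0.249 to 0.277). The gene col-3 (IV, 8824783 to 8826013) had 2354 and 9944 and stood nearer to the 2-fold line at 0.471 (0.450 to 0.493). In col-184 (X, 13469455 to 13470409) 2731 sorted and 10525 input reads gave 0.516 (0.495 to 0.538), which was not called.

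Members tied to a life stage or a signal came next. The adult collagen gene col-19 (X, 421707 to 422691), switched on at the last moult, had 3077 sorted reads (673 RPM) and 28492 input reads (3133 RPM), a ratio of 0.215 (0.207 to 0.223). The other 2 genes of the adult list, col-7 and col-62, which are neighbours on chromosome I, had 0 reads in both libraries. The handling of multiply mapped reads is not given and close copies were not checked, so 0 reads need not mean no transcript. The gene col-2, known from dauer larvae, a resting stage, had 1384 sorted and 3800 input reads, a ratio of 0.725 (0.681 to 0.771), and was not called. Of the 3 collagens reported to lengthen life when overexpressed, col-10 was lower at 0.366 (0.323 to 0.415), with 301 sorted and 1634 input reads. The others, col-13 at 0.496 (0.409 to 0.599) and col-120 at 0.697 (0.604 to 0.803), were not called. Of the collagens reported as targets of DBL-1, a signal of the BMP type that sets body size, col-41 stood at 0.422 (0.219 to 0.759) with 14 sorted and 66 input reads and col-142 at 0.856 (0.700 to 1.04), neither of them called. The third, col-141, had 4 and 12 reads and was not measured. The transmembrane collagen gene col-99, not a cuticle collagen of the usual kind, had 2 sorted and 8 input reads.

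Less abundant members with low upper bounds followed, among which col-80 is described with its 3' ends. The gene col-81 (II, 11012397 to 11013767) had 30 sorted and 371 input reads, a ratio of 0.161 (0.107 to 0.234). The gene col-20 (II, 4869670 to 4870791) had 213 and 1798, a ratio of 0.236 (0.203 to 0.272). For col-143 (V, 6835635 to 6836704) 563 sorted and 3920 input reads gave 0.286 (0.261 to 0.312), and for col-106 (IV, 1459896 to 1460786) 922 and 6387 gave 0.287 (0.268 to 0.308). Of the called members not described singly, the lowest ratio was that of col-53, 0.133 (0.0264 to 0.413) from 3 sorted and 45 input reads, and the highest that of col-101, 0.410 (0.390 to 0.432).

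A small group of col genes went the other way, though none reached 2-fold by its lower bound. The gene col-85 (II, 12493703 to 12495095) had 2112 sorted and 2466 input reads, levels of 462 and 271 RPM, and a ratio of 1.70 (1.61 to 1.81). With only the reads inside the annotated gene, the col-85 ratio was 1.20 (0.570 to 2.43), and with each position counted once it was 1.11. The col-85 site 5 nt past the annotated end held 2102 of 2112 sorted and 2442 of 2466 input reads. The ratio inside the gene thus rests on few of its reads, as the wide interval shows. The gene col-65, on chromosome I, had the highest ratio of all members, 1.91 (1.58 to 2.31), from 216 sorted and 225 input reads. The gene col-74 (II, 5830374 to 5832022) had 242 and 260, a ratio of 1.85 (1.55 to 2.21). Next to each other on chromosome III, col-96 and col-95 stood at 1.77 (1.45 to 2.16) and 1.47 (1.09 to 1.99).

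The other 4 members whose whole interval lay over 1 were col-153 at 1.82 (1.23 to 2.69), col-102 at 1.38 (1.06 to 1.81), col-37 at 1.18 (1.13 to 1.24) and col-40 at 1.16 (1.05 to 1.27). Of these, col-37 (V, 12166706 to 12167753) was abundant, with 2879 sorted and 4841 input reads, and was the eighth most abundant member in sorted nuclei. The tenth-highest lower bound was that of col-84, whose ratio of 1.01 (0.926 to 1.09) was on the other side of 1 under TMM, at 0.978. With each position counted once, the ratios of col-37 and col-65 were 0.778 and 0.971.

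**Figure D3:**
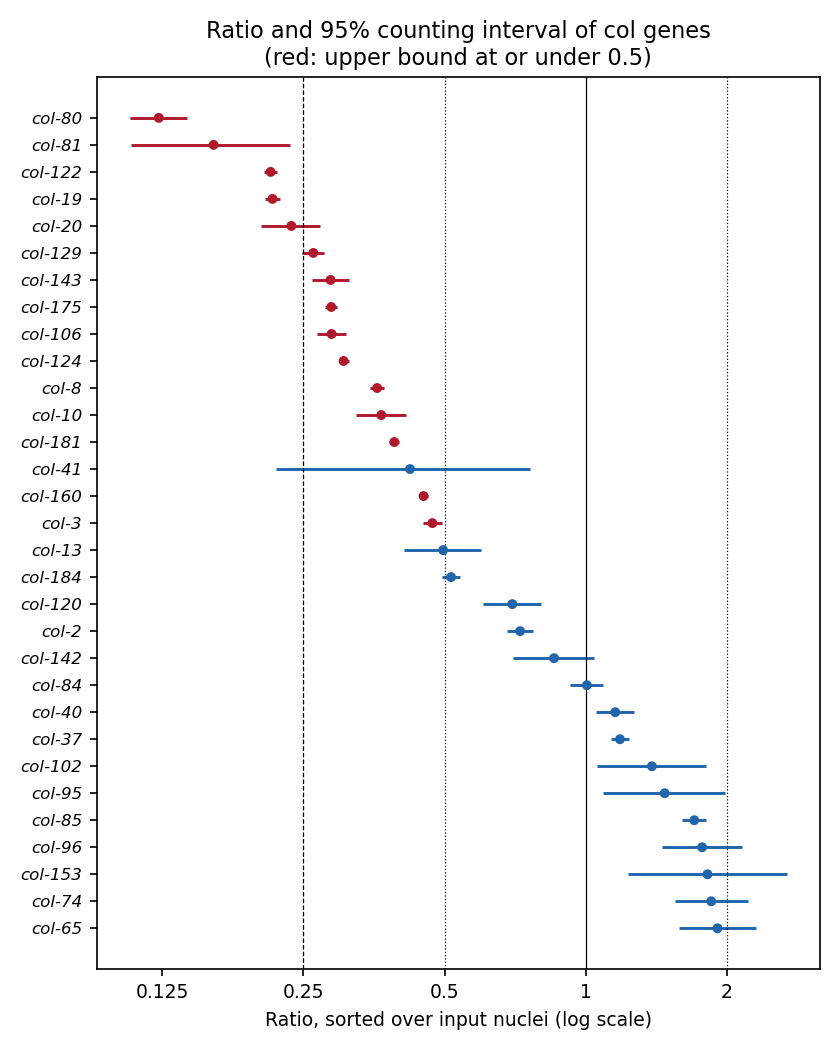
Ratio of sorted over input nuclei (horizontal axis, log scale) with its 95% counting interval for the col genes described individually and measured, sorted with the lowest at the top. Red marks an upper bound at or under 0.5, and lines mark ratios of 0.25, 0.5, 1 and 2. Ratios run from 0.123 for col-80 to 1.91 for col-65.

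On the chromosomes, 41 members lay on IV, 31 on V, 27 on X, 24 on II, 21 on I and 12 on III. The median log2 ratio of measured members was -1.22 on III (10 genes), -0.97 on X (22), -0.93 on V (26), -0.82 on IV (34), -0.53 on II (19) and -0.40 on I (12). All genes measured on these chromosomes had medians between -0.12 on I and 0.19 on V. With a gap of at most 10 kb between neighbours, 50 members stood in 21 runs, and 6 runs held 3 or more. Runs differed in how alike their members were. In the run on V of col-144, col-145 and col-10, the ratios were close, at 0.382 (0.326 to 0.447), 0.430 (0.323 to 0.563) and 0.366 (0.323 to 0.415). In that of col-141, col-142 and col-143, also on V, col-142 at 0.856 (0.700 to 1.04) and col-143 at 0.286 (0.261 to 0.312) had intervals that did not overlap.

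In the run on II of col-17, col-20 and col-73, ratios were 0.357 (0.248 to 0.501), 0.236 (0.203 to 0.272) and 0.484 (0.308 to 0.737). Further along II, col-79 stood at 0.299 (0.238 to 0.373), col-39 at 0.845 (0.449 to 1.53) and col-80 at 0.123 (0.106 to 0.141). On X, the 5 neighbours col-167 to col-171 had between 0 and 841 reads each. Of these, col-169 was lower at 0.277 (0.166 to 0.438), while col-168 had 195 sorted and 646 input reads and stood at 0.600 (0.509 to 0.706). In the run on III, col-93 had 67 sorted and 494 input reads, a ratio of 0.270 (0.206 to 0.349), while col-92 had 0 sorted and 4 input reads and col-94 none. The genes col-159 and col-160 overlap on 1 strand, so reads were split between them by the nearest annotated end. In col-160, the site at -1 nt from its annotated end held 9478 of 9487 sorted and 41802 of 41848 input reads. In col-159, the site at -1 nt from its own end held 91 of 97 and 357 of 367. The gene of the remaining reads is uncertain.

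**Figure D4:**
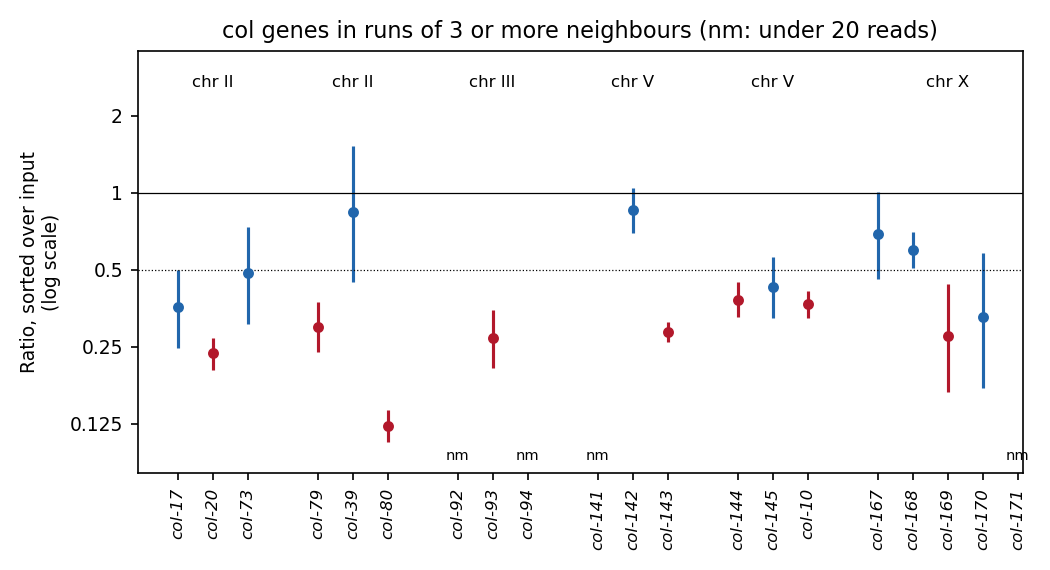
Ratio of sorted over input nuclei (vertical axis, log scale) with 95% counting intervals for the 20 col genes in the 6 runs of 3 or more neighbours, in chromosome order. Red marks genes at least 2-fold lower and nm genes with under 20 reads. The run of col-144, col-145 and col-10 lies between 0.366 and 0.430, while col-142 and col-143 differ.

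The position of the 3' ends was the second readout. The position with the most reads held a median of 71.2% of a member's reads. In 92 of 123 members (74.8%) its distance from an annotated end was at most 24 nt, against 74.4% of all measured genes. It lay further upstream in 18 members and further downstream in 13, and no share over all genes is given for either side. Measured from the stop codon, the main 3' end lay a median of 59 nt downstream, with quartiles of 42 and 90 nt and the farthest, col-147, at 293 nt. These distances carry the error of the build offset. Most members used 1 site. With positions gathered within 24 nt and sites of at least 5% of reads kept, several sites were found in 23 of the 107 members that reached 20 reads in both libraries separately (21.5%), against 55.7% of all genes. For coding lengths of 700 to 1300 nt and 1000 reads or more, 4 of 48 members (8.33%) did, against 23.3% of all such genes. These shares were not tested.

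A site was called shifted when its share differed by at least 20 percentage points with intervals that did not overlap. Of the 23 members with several sites, 1 had a shifted site, col-80, against 16.3% of all genes with several sites. In col-80 (II, 10707201 to 10708287), the site 2 nt past the annotated end held 173 of 212 sorted reads, 81.6% (75.7 to 86.6), and 1010 of 3431 input reads, 29.4% (27.9 to 30.99). The other site lay inside the coding sequence, at -799 nt from the annotated end, where the minus sign means upstream. It held 37 sorted reads, 17.5% (12.6 to 23.2), and 2406 input reads, 70.1% (68.6 to 71.7). Whether the reads there mark true ends of col-80 transcripts was not tested. The ratio of all col-80 reads was 0.123 (0.106 to 0.141). With reads outside coding sequence alone, 175 sorted and 1022 input, it was 0.340 (0.288 to 0.400), lower at 2-fold but not at 4-fold.

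**Figure D5:**
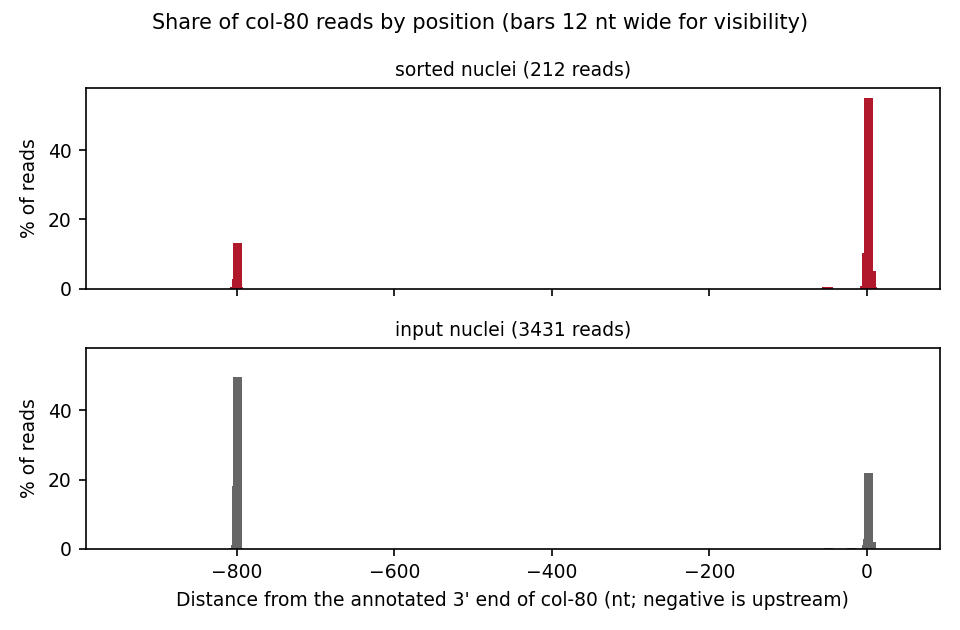
Share of the col-80 reads (vertical axis, percent) by distance from its annotated 3' end (horizontal axis, nt), for sorted nuclei (top, 212 reads) and input nuclei (bottom, 3431 reads). Reads gather at 2 places, at the annotated end and at -799 nt, and the upstream place holds 17.5% of sorted and 70.1% of input reads.

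The main 3' end lay inside the annotated coding sequence in 2 members, col-80 and col-37, and no such share over all genes is given. The cDNA was primed with T and no sequence was used, so whether such reads mark true transcript ends was not tested. In col-37 all reads lay there, with the main position at -55 nt from the annotated end (2364 sorted and 3998 input reads). In 3 rare members, col-60, col-73 and col-128, a site differed by over 20 percentage points with intervals that overlapped. In col-73, with 28 sorted and 115 input reads, the site at the annotated end held 50.0% (30.6 to 69.4) of sorted and 76.5% (67.7 to 83.9) of input reads. In col-60, with 22 and 39 reads, the site at -149 nt held 31.8% (13.9 to 54.9) and 61.5% (44.6 to 76.6). The site of col-128 that lay 208 nt past its annotated end held 25.0% (9.77 to 46.7) of 24 sorted and 2.22% (0.0562 to 11.8) of 45 input reads, again with overlapping intervals. These 3 members did not meet the rule for a shifted site, and overlap of the intervals does not show that the shares were equal. In other members with several sites, shares were closer. In col-97 the main site, at -123 nt, held 92.9% (91.4 to 94.2) of sorted and 92.3% (91.5 to 93.0) of input reads, and in col-14, with 114 sorted and 294 input reads, the site 113 nt past the end held 28.1% (20.1 to 37.3) and 30.95% (25.7 to 36.6).

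Cuticle collagens named for their mutant shapes rather than by the col- prefix were described beside the family. Of 20 matched and measured, 6 were at least 2-fold lower and 1 higher, against 4.13% and 13.6% of all measured genes, with a median log2 ratio of -0.96. In input nuclei the most abundant were sqt-3 at 0.710 (0.687 to 0.734), dpy-17 at 0.499 (0.476 to 0.523) and dpy-13 at 0.533 (0.506 to 0.562), none of them called. The gene rol-6, whose mutations make worms roll, was the 1 higher gene, with 3284 sorted and 2854 input reads and a ratio of 2.29 (2.18 to 2.41). It was the second most abundant of the list in sorted nuclei. The transgene of the strain is not described in the sources used here, and whether all rol-6 reads come from the gene's own locus was not tested. The 3 collagens of basement membranes, the sheets under epithelia, had a median of -1.40. The type IV chain gene let-2 at 0.379 (0.345 to 0.416) and cle-1, a type XVIII-like collagen gene, at 0.374 (0.303 to 0.457) were lower, and the other type IV chain gene, emb-9, stood at 0.491 (0.394 to 0.607).

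Genes for modifying, trimming and crosslinking collagen were mostly not called. Of 17 listed, 14 were measured, with a median log2 ratio of 0.17, 0 lower and 1 higher, against 4.13% and 13.6% of all measured genes. The higher gene was pdi-2, a protein disulfide isomerase and subunit of prolyl hydroxylase, with 8331 sorted and 4200 input reads and a ratio of 3.95 (3.802 to 4.10). Another isomerase gene, pdi-3, had 20215 and 51946 reads, a ratio of 0.774 (0.762 to 0.787). The cyclophilin gene cyn-5 stood at 1.56 (1.39 to 1.74) and bli-4, a protease of the kind that trims procollagen, at 0.573 (0.513 to 0.638). Of the rarer genes, doxa-1 at 3.41 (1.69 to 7.13), the lysyl hydroxylase gene let-268 at 2.98 (1.58 to 5.75) and the tetraspanin gene tsp-15 at 2.47 (1.83 to 3.34) had intervals over 1 but were not called, and the cyclophilin gene cyn-9 stood at 0.426 (0.227 to 0.752). The hydroxylase subunit genes dpy-18 and phy-2 had 28 and 29 sorted reads and ratios of 0.593 (0.374 to 0.912) and 1.13 (0.691 to 1.82).

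Among 15 regulators of cuticle genes, 14 were measured, with a median log2 ratio of 0.058, 0 lower and 4 higher, against 4.13% and 13.6% of all measured genes. The receptor gene sma-6 had 572 sorted and 199 input reads, a ratio of 5.72 (4.86 to 6.75), and the zinc-finger gene sma-9 678 and 413, a ratio of 3.27 (2.89 to 3.70). The Smad genes sma-2, at 6.56 (3.16 to 14.9), and sma-4, at 3.68 (2.26 to 6.12), rested on 43 and 77 reads. These 4 act in DBL-1 signalling, and so do 3 genes of the list that were not called, the ligand gene dbl-1 at 0.351 (0.0659 to 1.21), the Smad gene sma-3 at 1.42 (0.859 to 2.32) and the receptor gene daf-4 at 0.820 (0.586 to 1.13). The heterochronic gene lin-14, which times larval fates, stood at 1.06 (0.957 to 1.17). The epidermal GATA gene elt-3 had 8.31 RPM in sorted and 13.7 RPM in input nuclei, a ratio of 0.605 (0.409 to 0.876).

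Markers of other tissues also differed between the libraries, and the counts below stand beside 4.13% lower and 13.6% higher among all measured genes. Of 21 hypodermal genes other than collagens, 6 of them also in the list of regulators, 19 were measured, 4 were lower and 0 higher, and their summed level was 1776 RPM in sorted and 3071 RPM in input nuclei. Of these, cutl-1 was at 0 in both libraries, the abundant cuticlin gene cut-2 stood at 0.601 (0.585 to 0.618), and qua-1 was lower at 0.338 (0.295 to 0.386). Germ line and oocyte genes summed to 7262 RPM in sorted and 15596 RPM in input nuclei, with 5 of 14 lower and 1 higher. Pharynx genes summed to 98.7 and 219 RPM, with 1 of 4 measured lower. Sperm genes summed to 664 and 1101 RPM, with 5 of 27 measured lower. Body wall muscle genes summed to 2857 and 3741 RPM, with 1 of 10 higher. Most of that gap lay in unc-27 (1009 and 1751 RPM), without which the muscle sums were 1848 and 1990 RPM. Neuronal genes summed to 288 and 194 RPM, with 1 of 6 measured higher and 0 lower (1 lower under TMM). The higher neuronal gene, snb-1, held 205 RPM in sorted and 83.8 RPM in input nuclei, and without it the sum was 83.6 RPM in sorted and 110 RPM in input nuclei, the other direction. The part of tissue make-up in the ratios of the col genes was not tested.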

How the data were processed

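For each library the authors deposited counts of reads per genome position and strand, whole and unscaled. Per the submitters' processing notes TopHat was used, version not stated. For the build, the filters on reads and the handling of multiply mapped reads, the status is: not given in the sources used here. Per the labels' protocols, cDNA was primed with 24 T, copied by T7 polymerase into antisense RNA, and ended with 12 PCR cycles, with no molecular identifiers, so reads are not independent molecules.

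The files use a build other than WBcel235. In each of 203 windows of 0.5 Mb, positions with at least 10 reads were compared with annotated protein-coding 3' ends, and the commonest offset was added (-7 to 120 nt in 200 windows, 4611 or 4612 nt in the last 3 of chromosome V). A median of 41.8% of positions then lay within 3 nt of an annotated end at that offset. Each gene took the reads of its strand from its start to 300 nt past its end, and a position in several genes went to the nearest annotated end. Coordinates printed are WBcel235 gene models (Ensembl 115 annotation).

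Ratios are scaled to gene-assigned reads, log2 ratios have 0.5 reads added to each library, and intervals are exact (Clopper-Pearson). No test between groups was possible with 1 library each. Alternatives included TMM (edgeR 4.0.16) and median of ratios (DESeq2 1.42.0). Scripts ran in Python 3.11.15 and R 4.3.3 and were tested on simulated data. Members, lists and thresholds were chosen with earlier results of these data known. Genes described singly were the 10 members with most sorted reads, most input reads, lowest upper and highest lower bounds, those with shifted sites, listed members and up to 4 genes of other lists. Other genes named were chosen after their values were seen. No sequence was used, so planned comparisons of proteins, promoters and near-identical copies were not run, and counts of members with close copies are uncertain. The deposited strand was taken as that of the transcript.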

Additional observations from a re-analysis of the deposited data

How the results depend on the processing

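The family's share of reads kept its direction, smaller in sorted than in input nuclei, in every alternative run. It was 1.95% and 4.95% under TMM, 1.95% and 4.94% under median of ratios, 1.92% and 4.81% over all nuclear reads, 2.04% and 5.38% with no extension, 1.94% and 4.82% with 100 nt, 1.43% and 3.87% in windows with offsets of at most 5 nt, 1.77% and 4.25% within 24 nt of annotated ends, 1.92% and 4.84% outside coding sequence (chosen after the data were seen), and 1.02% and 1.36% with each position counted once. Counting positions once, which caps each position at 1 read, left 0 of 81 measured members lower and a median log2 ratio of -0.37, beside 31 and -0.88. No share or median over all genes is given for this setting. The windows with offsets of at most 5 nt held 23 measured members, 6 of them lower. A 4-fold bound gave 4 lower and 0 higher members, against 0.314% and 4.69% of all measured genes. The point ratio alone gave 51 lower and 0 higher members. Of all measured genes, between 11.9% and 18.4% had a point ratio under 0.5, depending on the class of read depth. In the other alternatives between 24 and 34 members were lower and 0 higher, of between 101 and 143 counted. Over all measured genes, 4.57% were lower and 13.1% higher under TMM. These shares were 4.55% and 13.1% under median of ratios, and 4.36% and 13.3% over all nuclear reads. For the rest of these alternatives no share over all genes is given. Of 195 values of the 15 named members called lower, 177 stayed called and 0 turned direction. The 195 include the settings of a minimum of 50 reads and of no minimum. These leave a named member's reads unchanged, so its call there was fixed in advance. The calls lost were all 15 with positions counted once, col-106 with no extension (0.158), and col-3 (0.493) and col-181 (0.480) near annotated ends. For col-106 with no extension the interval was 0.0181 to 0.632. Its site 32 nt past the annotated end, left out there, held 919 of 922 sorted and 6360 of 6387 input reads. Among uncalled named members col-84 turned under 3 scalings (0.978, 0.979 and 0.991), and col-37 (0.778) and col-65 (0.971) with positions counted once. The cause was not tested. The count of members with a shifted site was 1 in all 6 settings. Leaving out members with near-identical copies was not run. No paired analysis was possible because each group holds 1 library. Depth limits the 33 members with under 20 reads, for which no direction is given.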

Other observations

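Chosen after their values were seen, 2 structural genes stood apart from their lists. The collagen gene rol-6 had 718 RPM in sorted and 314 RPM in input nuclei, a ratio of 2.29 (2.18 to 2.41), while the other 19 measured cuticle collagens outside the col- prefix had ratios between 0.243 (0.117 to 0.456), for lon-3, and 0.853 (0.462 to 1.51), for dpy-3. The muscle myosin gene unc-54 had 209 RPM in sorted and 78.5 RPM in input nuclei, a ratio of 2.67 (2.42 to 2.94), while the other 9 muscle genes of the list, none of them called, had their highest ratio in unc-60, 1.64 (1.36 to 1.97), and their lowest in unc-89, 0.426 (0.270 to 0.650), with the abundant unc-27, mup-2 and pat-10 at 0.576 (0.557 to 0.595), 0.777 (0.751 to 0.803) and 1.00 (0.942 to 1.07). The strain's transgene is not described in the sources used here, and whether the reads counted for rol-6 and unc-54 all come from these genes' own loci was not tested.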
